A study of Mus musculus with 12 samples.

Results

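The genes described here encode the core and the tip links of the microvillus, the actin-filled finger of membrane that covers the apical surface of absorptive epithelium. They are Ush1c, Cdhr2, Cdhr5, Myo7b, Myo1a, Vil1, Espn, Eps8, Pls1 and Ezr, 10 of the 15687 genes in the deposited table of normalized counts. They were chosen by name and function with earlier results of the same comparison known, so their differences between the groups are given as a description and without a test. All 10 were in the table. Ush1c had so few reads in the CTL tumors that it was in the table only through the Filip1l-knockdown tumors.

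The samples were 12 bulk tumors, 6 in each of 2 groups, grown under the skin of 8-week-old male C57BL6/J mice from a mouse lung cancer line, mTC11, and harvested on day 24. All cells had been infected with lentivirus and selected with puromycin. CTL tumors carried a scrambled shRNA (shControl) and Filip1l-knockdown tumors an shRNA against Filip1l, a gene for a filamin A interacting protein. Each line was a mixed population of clones, the knockdown clones had been selected for low FILIP1L protein, and which of the study's target sequences these tumors carried was not given in the sources used here. Nothing in the labels ties a replicate number to a shared batch, and the samples of a group are taken as separate tumors.

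Depth was even apart from 1 library. The tumors held between 25460564 and 32419578 reads on the listed genes, except CTL replicate 5 with 17834745. Filip1l itself had 2311 ± 211 normalized counts (SD, n = 6) in CTL and 1924 ± 165 (SD, n = 6) in knockdown tumors, a log2 fold change of -0.26 ± 0.07 (SE) with an adjusted p of 0.00998 (limma), and the groups overlapped, from 1983 to 2542 against 1670 to 2184. By immunostaining, the study reported less FILIP1L in tumors from the knockdown clones, which is a measure of protein and not of mRNA. The bulk tumors also contain host cells. Epithelial origin was visible in both groups, with Cdh1 (E-cadherin) at 28492 ± 2707 and 28678 ± 2877 normalized counts (SD, n = 6). The epithelial signal was not equal, however. Krt18, Krt8, Epcam and Krt19 had log2 fold changes of 0.44, 1.06, 1.51 and 1.65.

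In intestinal and renal epithelium each microvillus is built on a bundle of parallel actin filaments that is crosslinked by villin, espin and plastin, capped and bundled by EPS8, and tied to the membrane by class I myosin and ezrin. Neighboring microvilli are held together at their tips by the intermicrovillar adhesion complex. In it the protocadherins CDHR2 and CDHR5 bind each other across the gap, and the scaffolds harmonin (Ush1c) and ANKS4B, with the motor myosin VIIb and its light chain CALML4, anchor them to the actin bundle. A related complex joins the stereocilia of sensory hair cells, and loss of harmonin causes Usher syndrome.

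The promoters of 5 genes are shown because these genes span the range of the differences, from Ush1c, which was nearly absent from CTL tumors, to Ezr, which was abundant in both groups. Sequences are from RefSeq on GRCm38.p6 and run 5′ to 3′ on the gene's strand, up to the base before the first annotated exon, and capitals mark a match to a searched motif.
Ush1c, chr7:46238504-46238740, minus strand: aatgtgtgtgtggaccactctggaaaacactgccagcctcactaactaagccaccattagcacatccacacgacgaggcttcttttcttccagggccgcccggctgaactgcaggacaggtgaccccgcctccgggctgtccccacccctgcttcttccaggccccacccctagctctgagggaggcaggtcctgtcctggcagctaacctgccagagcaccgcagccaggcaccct
Cdhr2, chr13:54701213-54701460, plus strand: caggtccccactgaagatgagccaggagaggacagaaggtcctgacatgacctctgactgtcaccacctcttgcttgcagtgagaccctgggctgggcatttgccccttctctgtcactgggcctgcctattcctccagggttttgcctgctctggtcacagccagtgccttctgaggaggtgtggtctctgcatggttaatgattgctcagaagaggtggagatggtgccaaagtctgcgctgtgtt
Cdhr5, chr7:141276787-141277036, minus strand: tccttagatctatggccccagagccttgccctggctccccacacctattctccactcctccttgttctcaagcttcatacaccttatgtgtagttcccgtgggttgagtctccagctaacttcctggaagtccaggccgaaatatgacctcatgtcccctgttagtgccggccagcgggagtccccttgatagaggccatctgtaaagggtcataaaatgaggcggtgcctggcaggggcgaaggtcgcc
Vil1, chr1:74409134-74409375, plus strand: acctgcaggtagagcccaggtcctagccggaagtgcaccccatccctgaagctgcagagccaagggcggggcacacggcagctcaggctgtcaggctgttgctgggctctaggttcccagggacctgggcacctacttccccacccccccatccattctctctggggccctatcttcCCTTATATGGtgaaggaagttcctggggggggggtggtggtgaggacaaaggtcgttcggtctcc
Ezr, chr17:6782785-6783030, minus strand: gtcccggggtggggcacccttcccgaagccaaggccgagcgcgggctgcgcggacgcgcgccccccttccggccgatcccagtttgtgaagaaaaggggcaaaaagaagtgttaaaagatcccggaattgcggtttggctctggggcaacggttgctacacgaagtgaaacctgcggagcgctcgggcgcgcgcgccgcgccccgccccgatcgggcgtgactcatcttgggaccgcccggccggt

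RefSeq gave promoters for 8 of the 10 genes, none for Eps8 or Myo7b. In the 250 bases before the start site, both strands were searched for AAAGTCCA of HNF4, TTTATNG of CDX factors, AGATAA of the GATA factors and TATAAA of the core promoter's TATA box. The CArG box, to which serum response factor binds, was added after the sequences had been seen. The capitals in Vil1 are a CArG box at positions -73 to -64 from the RefSeq start site, found in 1.47% of 32851 promoters and readable on either strand. The Vil1 sequence shown ends 8 bases before that site, because those bases lie inside the annotated exon. Among the letters named here, the only other match was CDX letters in 1 of 3 Espn promoters, against 9.81% of all promoters. A further motif that had been planned is not reported here. No letters of HNF4, the GATA factors or the TATA box lay in these windows, which 1.01%, 9.99% and 12.4% of all promoters hold. The Ezr promoter stood apart in base composition, with 32 CpG dinucleotides and 67.2% G and C, where the windows of Ush1c, Cdhr2, Cdhr5 and Vil1 had between 1 and 7 CpG and between 55.6% and 62.8% G and C. The median over all promoters was 6 CpG and 52.4%. The matches are letters in a window, and binding was not measured.

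The adhesion complex genes were far higher in the knockdown tumors, and Ush1c was nearly absent from the CTL tumors. Levels are in normalized counts, which are reads divided by a factor for the size of each library. In bulk tumors, more cells of a type and more RNA in each cell cannot be told apart.

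Ush1c (7, 46195350 to 46238503, mm10), which encodes harmonin, had 0 or 1 read in each CTL tumor, 4 reads over the 6 libraries, all under the floor of 3 reads that a count of 0 allows. In the knockdown tumors it had 63 to 300 reads, with 63.5 normalized counts in the lowest, 145 in the median and 259 in the highest tumor. The groups did not overlap, and the knockdown mean of 159 ± 65.9 (SD, n = 6) was at least 50.7-fold higher than the mean CTL floor of 3.15. Even the lowest knockdown tumor lay at least 20.2-fold over that floor. The floor covers counting error only. Of the exonic bases of Ush1c, 3.12% overlap a gene model on the other strand, Gm9860, and the library kit does not mark strand.

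Cdhr2 (13, 54701461 to 54736662), the protocadherin that pairs with CDHR5 at the tips, had 12.96, 24.7 and 33.0 normalized counts in the lowest, median and highest CTL tumor. In knockdown tumors these were 271, 656 and 755. The groups were far apart, with means of 24.8 ± 7.72 and 604 ± 174 (SD, n = 6), a 24.4-fold difference and a log2 fold change of 4.54 ± 0.27 (SE).

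Cdhr5 (7, 141269083 to 141276786), the mucin-like partner of CDHR2, had 225, 291 and 419 normalized counts in CTL and 2640, 5155 and 7164 in knockdown tumors (lowest, median, highest). Its lowest knockdown tumor was well above its highest CTL tumor. The means were 302 ± 63.4 and 5003 ± 1609 (SD, n = 6), 16.6-fold apart, with a log2 fold change of 4.00 ± 0.21 (SE). Cdhr5 was the more abundant of the pair in both groups. Per kb of exon, its level was 20.6 ± 9.07 times that of Cdhr2 in CTL and 12.7 ± 2.72 times in knockdown tumors (SD, n = 6), with ranges that overlapped.

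Myo7b (18, 31959234 to 32036961), the motor that carries the complex to the tips, had 47.6, 60.7 and 82.0 normalized counts in CTL and 875, 1583 and 1831 in knockdown tumors (lowest, median, highest). The groups did not overlap. The mean was 62.8 ± 14.5 in CTL and 1477 ± 342 in knockdown tumors (SD, n = 6), a 23.5-fold difference with a log2 fold change of 4.53 ± 0.19 (SE).

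The other parts of this complex, which were not among the 10 genes, also rose. They and the related genes below were likewise chosen with earlier results known. Their adjusted p-values are therefore given as a description. Anks4b, the scaffold that links harmonin to myosin VIIb, went from 209 ± 23.6 to 813 ± 187 normalized counts (SD, n = 6), a log2 fold change of 1.93 ± 0.14 (SE, adjusted p = 2.78e-07, limma). Calml4, the light chain, went from 229 ± 40.5 to 778 ± 169 (log2 fold change 1.75 ± 0.16 SE, adjusted p = 1.87e-06, limma). Both were thus well covered in CTL tumors, where Ush1c had at most 1 read. Of the hair cell counterparts of the complex, Myo7a, Ush1g, Whrn and Cdh23, none passed both thresholds, which were 0.05 for the adjusted p and 1 for the size of the log2 fold change. Their log2 fold changes ran from 0.30 ± 0.07 (SE) for Myo7a to 0.87 ± 0.16 for Ush1g. Pcdh15, the hair cell partner of CDH23, was not in the table.

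**Figure D1:**
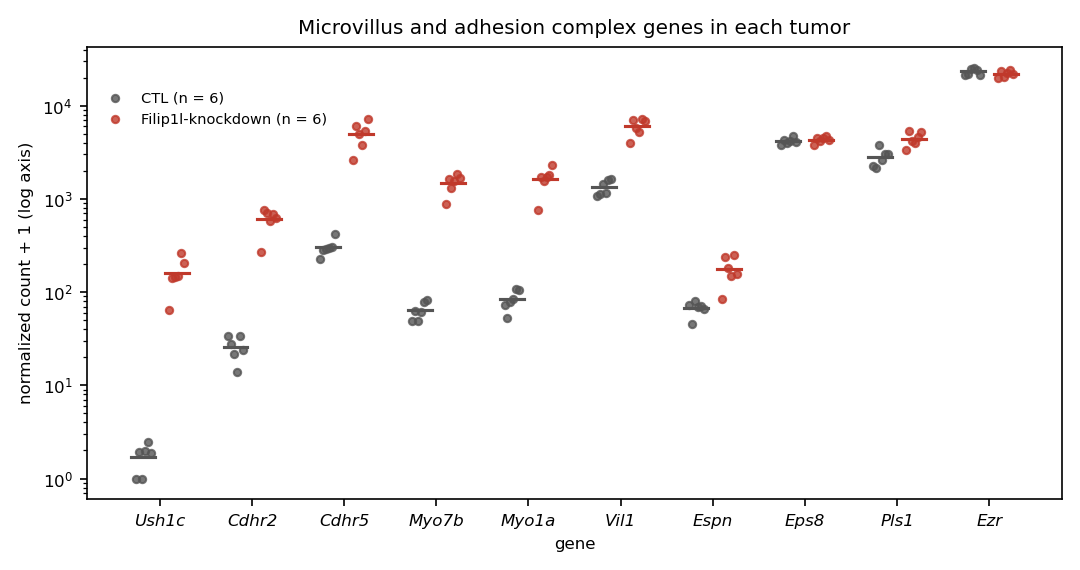
Normalized count plus 1 on a log axis of each of the 10 genes in each of 6 CTL (grey) and 6 Filip1l-knockdown (red) tumors, with points for tumors and lines for group means. The groups are separate for 7 genes, from Ush1c at 0.720 against 159 normalized counts to Espn at 66.4 against 175, and overlap for Eps8, Pls1 and Ezr.

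The genes of the actin core divided into those that were much higher, those that were moderately higher and those that were level. Myo1a (10, 127705170 to 127720940), the class I myosin that links the core to the membrane in enterocytes, had 51.1, 79.8 and 108 normalized counts in CTL and 766, 1711 and 2333 in knockdown tumors (lowest, median, highest). No knockdown tumor came near the CTL range. The means of 82.4 ± 21.3 and 1647 ± 507 (SD, n = 6) differed 20.003-fold, a log2 fold change of 4.27 ± 0.24 (SE).

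Vil1 (1, 74409376 to 74435559), encoding villin, which bundles and severs actin, had 1068, 1302 and 1617 normalized counts in CTL and 4017, 6263 and 7207 in knockdown tumors. It was thus well expressed in both groups, without overlap. Its means of 1336 ± 252 and 6016 ± 1253 (SD, n = 6) were 4.50-fold apart, with a log2 fold change of 2.16 ± 0.15 (SE). An overlap with exons of Usp37 on the other strand covers 1.38% of its exonic bases.

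Espn (4, 152120331 to 152152371), the gene of the bundling protein espin, had 44.5, 69.0 and 79.7 normalized counts in CTL and 82.7, 167 and 247 in knockdown tumors. The groups were adjacent without overlapping. The mean went from 66.4 ± 11.8 to 175 ± 61.6 (SD, n = 6), 2.64-fold, with a log2 fold change of 1.32 ± 0.24 (SE).

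Pls1 (9, 95752642 to 95845311), encoding the plastin of intestinal microvilli, had 2145, 2806 and 3769 normalized counts in CTL and 3318, 4379 and 5337 in knockdown tumors. The groups overlapped. The difference in means, 2803 ± 609 against 4437 ± 784 (SD, n = 6), was 1.58-fold, and the log2 fold change of 0.67 ± 0.14 (SE) lay under the threshold of 1.

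Eps8 (6, 137477245 to 137654876), whose product caps and bundles actin at the tip, and Ezr (17, 6738041 to 6782784), the linker ezrin, differed between the groups by less than the spread of their tumors. Eps8 had 3774, 4133 and 4675 normalized counts in CTL and 3822, 4385 and 4686 in knockdown tumors, a log2 fold change of 0.06 ± 0.06 (SE). Ezr had 21310, 23030 and 25630 in CTL and 19861, 22223 and 24044 in knockdown tumors, a log2 fold change of -0.07 ± 0.07 (SE). The groups overlapped for both genes, more closely for Eps8 than for Ezr.

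With the thresholds used for all genes, 7 of the 10 were called higher and 0 lower, where 6.20% of all 15687 genes were called higher and 3.97% lower. The same 7 had groups that did not overlap, as did 10.6% of all genes in that direction. The comparison had been used in choosing the genes, so nothing is read from these counts. The median log2 fold change was 3.08 over the 10 genes, also with Ush1c at its bound, and 0.01 over all genes.

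Levels of different genes were compared per kb of exon. In CTL tumors Ezr led with 7067 ± 580 normalized counts per kb (SD, n = 6), followed by Pls1 with 721 ± 157, Vil1 with 376 ± 70.9 and Eps8 with 336 ± 24.8. The ranges of Vil1 and Eps8 overlapped. Cdhr5 came next with 110 ± 23.2 and Myo1a with 22.2 ± 5.75, and Myo7b, Espn and Cdhr2, between 6.00 and 9.48, overlapped from one to the next. Ush1c was last.

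In knockdown tumors the order differed below Ezr, which still led with 6711 ± 524 per kb. Cdhr5 took the second place with 1827 ± 588, overlapping Vil1 with 1694 ± 353, which overlapped Pls1 with 1141 ± 202. Myo1a, with 444 ± 137, overlapped Eps8 with 350 ± 25.5. Myo7b, Cdhr2, Ush1c and Espn followed with 223 ± 51.7, 146 ± 42.0, 41.4 ± 17.1 and 21.2 ± 7.45, each range overlapping the next. As a share of the summed level per kb of the 10 genes, Ezr went from 81.7% ± 2.16 to 53.8% ± 5.13 and Cdhr5 from 1.28% ± 0.29 to 14.2% ± 3.13 (SD, n = 6).

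Most of these genes have paralogs that serve other protrusions or other cells, and some paralogs had lower values in the knockdown tumors. Moesin (Msn), the ezrin relative of leukocytes, endothelium and mesenchymal cells, went from 28498 ± 2362 to 17670 ± 2010 normalized counts (SD, n = 6), a log2 fold change of -0.69 ± 0.08 (SE). Radixin (Rdx) differed by -0.63 ± 0.09. Neither reached the fold threshold, though adjusted p was 1.64e-05 and 5.80e-05 (limma) and neither gene's groups overlapped. With ezrin level, its share of the counts per kb of the family went from 56.4% ± 2.92 to 66.3% ± 3.88 (SD, n = 6), with ranges of 52.8% to 60.7% and 60.2% to 70.2% that just met.

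The plastins differed in a similar way. Pls3, the plastin of many solid tissues, had a log2 fold change of -0.47 ± 0.07 (SE, adjusted p = 6.90e-05, limma) and Lcp1, the leukocyte plastin, one of 0.37 ± 0.14 that turned to -0.01 when the median shift of each chromosome was removed. The Pls1 share of plastin counts per kb was 20.3% ± 4.40 in CTL and 33.6% ± 4.88 in knockdown tumors (SD, n = 6), and the highest CTL tumor, at 27.1%, was above the lowest knockdown tumor, at 25.9%.

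Of the Eps8 family, Eps8l3, whose product is found in intestinal epithelium, was the only gene that passed. It rose from 271 ± 70.8 to 1278 ± 280 normalized counts (SD, n = 6), a log2 fold change of 2.25 ± 0.18 (SE, adjusted p = 6.80e-07, limma), beside 0.46 ± 0.16 for Eps8l1 and 0.39 ± 0.09 for Eps8l2. Its share of the family's counts per kb went from 16.1% ± 3.03 to 43.6% ± 4.01, and that of Eps8 from 45.9% ± 3.51 to 27.6% ± 2.42 (SD, n = 6). Neither gene's shares overlapped between the groups.

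Of the class VII myosins, Myo7a had 97.2% ± 0.58 of the counts per kb in CTL tumors and Myo7b 2.82% ± 0.58. In knockdown tumors Myo7b had 35.3% ± 6.03 (SD, n = 6), between 25.0% and 40.9%. Among the class I myosins, Myo1a went from 0.739% ± 0.19 to 11.3% ± 2.90 of the counts per kb of Myo1a, Myo1c, Myo1d and Myo1e. Myo1d, which takes part in the membrane link of the enterocyte brush border, had a log2 fold change of 1.02 ± 0.10 (SE, adjusted p = 2.57e-06, limma), just past the threshold and under it in some alternatives.

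**Figure D2:**
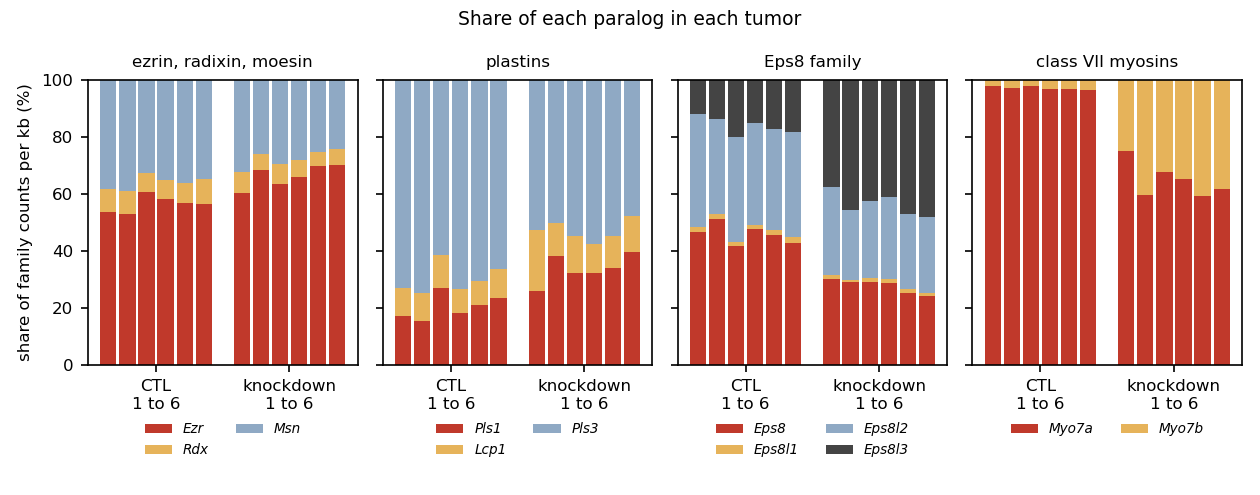
Stacked bars of the share, in percent of normalized counts per kb of exon, that each paralog had of its family in each of 6 CTL and 6 Filip1l-knockdown tumors. Eps8l3 goes from 16.1% to 43.6% and Myo7b from 2.82% to 35.3% of their families on average, and ezrin and Pls1 have larger shares in knockdown tumors with ranges that overlap.

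Beyond these genes, 49 of 54 genes from 8 lists of microvillus and apical proteins and of transcription factors were in the table, and 11 were called higher and 1 lower, beside 6.20% and 3.97% of all genes. These lists, too, were drawn up with earlier results known, and nothing is read from the counts. Their median log2 fold change was 0.20. Among other actin core genes, Eps8l3 and Baiap2l2 rose and 8 did not pass. Baiap2l2, which bends membrane at the tips, went from 32.4 ± 5.19 to 218 ± 60.4 normalized counts (SD, n = 6), a log2 fold change of 2.68 ± 0.19 (SE, adjusted p = 1.76e-07, limma).

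Of 7 other membrane linkers in the table, Podxl, the gene of the sialomucin podocalyxin, was the only one called. It fell from 9293 ± 858 to 3743 ± 789 normalized counts (SD, n = 6), a log2 fold change of -1.33 ± 0.12 (SE, adjusted p = 1.65e-06, limma). The ezrin partners Slc9a3r1 and Slc9a3r2 had values on either side of 0, with log2 fold changes of 0.70 ± 0.11 and -0.72 ± 0.06 (SE).

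In the lists of other myosins, apical transport and terminal web, 1 gene each passed, all higher. These were Myo1d, the adhesion protein gene Tmigd1, with a log2 fold change of 3.98 ± 0.40 (SE), and the nonmuscle myosin heavy chain gene Myh14, with 2.34 ± 0.22. The trafficking genes Rab8a, Rab11a, Stx3, Stxbp2 and Vps33b, which deliver apical membrane, did not pass, with log2 fold changes between -0.24 and 0.20.

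Transcription factors that drive brush border genes in the gut were divided. Of 9 in the table, Cdx2, Hnf4g, Gata4 and Elf3 rose and 5 did not pass. Cdx2, the intestinal identity factor, went from 259 ± 48.0 to 1155 ± 218 normalized counts (SD, n = 6), a log2 fold change of 2.15 ± 0.15 (SE, adjusted p = 1.24e-07, limma). Hnf4g went from 88.2 ± 25.8 to 371 ± 75.1, with 2.09 ± 0.20 (SE). Its relative Hnf4a, at 8054 ± 482 in CTL and 8890 ± 969 in knockdown tumors, had a log2 fold change of 0.14 ± 0.07 (SE, adjusted p = 0.152, limma). Cdx1 was not in the table. Gata4 lies on chromosome 14, whose median gene was shifted by 0.38 on the log2 scale, and its log2 fold change of 1.57 was 1.19 with that shift removed.

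**Figure D3:**
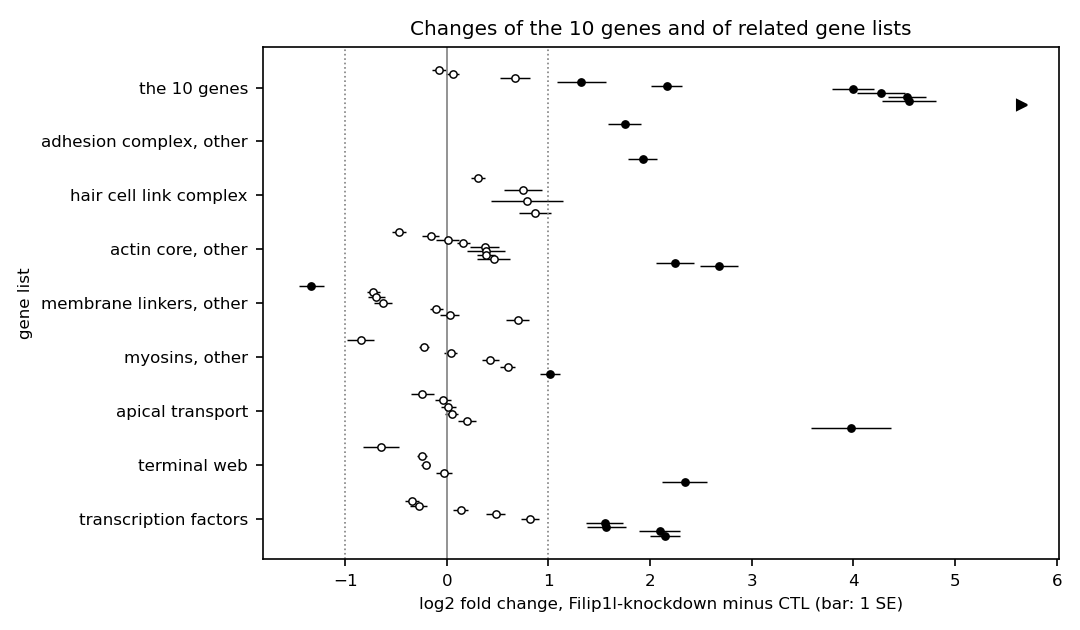
Log2 fold change, Filip1l-knockdown minus CTL, of the 10 genes and of 49 genes in 8 related lists, with bars of 1 SE, filled points for genes past both thresholds and a triangle for Ush1c at its lower bound of 5.66. The dotted lines are at -1 and 1, and most genes of the lists lie between them, with 11 to the right and Podxl alone to the left as called genes.

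Markers of cell types that carry such structures, or that share a tumor with the epithelium, were read beside these values. Of 10 enterocyte markers in the table, 9 were called higher, beside 6.20% of all genes and on a list likewise chosen with earlier results known. Among them were Sis (sucrase-isomaltase), from 7.37 ± 3.60 to 348 ± 135 normalized counts (SD, n = 6), and Alpi (intestinal alkaline phosphatase), from 5.92 ± 3.52 to 259 ± 102. Fabp1 did not pass, and Lct and Slc5a1 were not in the table. Sis, Alpi, Fabp2, Guca2a and Guca2b had CTL means under 9.28 normalized counts, the lowest mean of any gene in the table. Like Ush1c, these were in the table only through the knockdown tumors, and nothing is read from the count of 9. The summed enterocyte markers ran from 10563 to 16056 in CTL and from 41253 to 90119 in knockdown tumors. Most of that sum came from Lgals4 and Cdh17. Lgals4 had 9402 ± 2111 and 44131 ± 14103 normalized counts, and Cdh17 had 4466 ± 1509 and 23868 ± 3528 (SD, n = 6). Of 6 kidney proximal tubule markers only Cubn was in the table, and it fell (log2 fold change -1.57 ± 0.20 SE). Of 6 hair cell markers only Gfi1 was in the table, at 14.9 ± 8.70 and 17.0 ± 7.41 normalized counts. In the tuft cell list Trpm5 rose and Dclk1 fell, and in the lung list Sftpb rose and Foxj1 fell. The groups overlapped for Trpm5 and Sftpb but not for Dclk1 and Foxj1. Sftpb ran from 0.947 to 94.1 normalized counts in CTL and from 17.6 to 760 in knockdown tumors.

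The epithelial markers were read in the same way. Of Epcam, Cdh1, Krt8, Krt18 and Krt19, Epcam, Krt8 and Krt19 were called higher. Their log2 fold changes ran from 0.01 for Cdh1 to 1.65 for Krt19, and the mean log2 shift of the 5 was 0.93. Set against that mean in each tumor, the log2 fold changes of the genes were 5.57 ± 0.34 (SE) for Ush1c (a fitted value that depends on the pseudocount), 3.61 ± 0.25 for Cdhr2, 3.06 ± 0.15 for Cdhr5, 3.59 ± 0.16 for Myo7b, 3.34 ± 0.17 for Myo1a and 1.23 ± 0.11 for Vil1. These 6 were also past both thresholds on this scale, which, as the genes were chosen with the comparison known, is a description and no test. Espn, at 0.39 ± 0.20, and Pls1, at -0.26 ± 0.12, did not, nor did Eps8 at -0.88 ± 0.12, and Ezr was called lower at -1.01 ± 0.12, a call lost without any 1 of CTL replicates 1 and 2 and knockdown replicates 2, 3, 5 and 6 (-0.99 to -0.96). Anks4b and Calml4, the other parts of the adhesion complex, were at 0.99 ± 0.14 and 0.82 ± 0.14 (SE) against the 5 markers and were not called. Against Epcam alone, Vil1 was no longer called, at 0.65, and Eps8 was called lower with Ezr, at -1.45 and -1.58. On the scale of the 5 markers, the median of all 15682 genes was -0.93, with 2.14% called higher and 41.0% called lower. On the deposited scale, 973 genes were called higher and 623 lower. Epcam itself had a log2 fold change of 1.51. The shares of all genes called against Epcam alone are not given here.

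The fibroblast sums were lower in 5 of 6 knockdown tumors than in every CTL tumor, and the leukocyte and muscle sums overlapped between the groups. The 6 fibroblast markers, led by the collagen genes Col1a1, Col1a2 and Col3a1, summed to between 159034 and 258613 normalized counts in CTL and between 74138 and 250941 in knockdown tumors, and 0 of the 6 were called. The overlap came from knockdown replicate 1, since the other 5 knockdown tumors lay between 74138 and 156783. Col1a1 and Col1a2 had log2 fold changes of -0.76 ± 0.22 and -0.97 ± 0.25 (SE), with adjusted p of 0.0108 and 0.00626 (limma), under the fold threshold. Col3a1, Pdgfra and Lum had -0.52 ± 0.25, -0.41 ± 0.21 and -0.56 ± 0.45, and Dcn had 0.06 ± 0.29 (SE). For these the adjusted p was 0.114, 0.122, 0.339 and 0.899 (limma). The sums thus mostly follow the collagen genes. The 5 leukocyte markers summed to between 4286 and 5818 and between 4517 and 9383, with 0 called. The 6 skeletal muscle markers summed to between 1800 and 9528 and between 3745 and 76266, with 5 called higher. Their part in the levels of the microvillus genes was not tested.

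Within the knockdown group 1 tumor stood apart. Knockdown replicate 1 was the lowest of the 6 for all 10 genes, from 35.6% of the mean of the other 5 tumors for Ush1c and 40.5% for Cdhr2 to 62.6% for Vil1, 86.4% for Eps8 and 88.2% for Ezr. This tumor also had the highest leukocyte sum, 9383 against at most 6154 in the other 5, and the highest fibroblast sum, 250941 against at most 156783. Its summed epithelial markers, 188323, were the lowest of the group. Its level of the 7 separated genes was still above every CTL tumor. Without it the log2 fold changes were 4.76 for Cdhr2, 4.17 for Cdhr5, 4.67 for Myo7b, 4.48 for Myo1a, 2.27 for Vil1 and 1.52 for Espn. In the CTL group the lowest values were spread over 5 tumors.

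**Figure D4:**
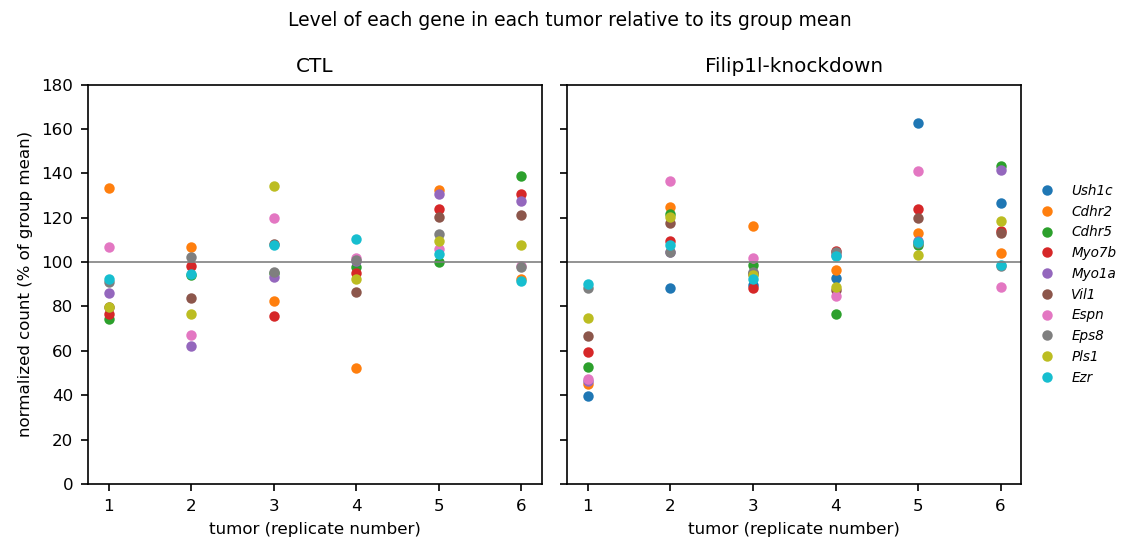
Normalized count of each gene in each tumor as a percentage of its group mean, for 6 CTL and 6 Filip1l-knockdown tumors (Ush1c in CTL is left out, with at most 1 read). All 10 genes are lowest in knockdown replicate 1, and Eps8 and Ezr stay closest to 100 in that group, with coefficients of variation of 7.29% and 7.80%.

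The spread within the groups differed from gene to gene. In knockdown tumors the coefficient of variation was 41.4% for Ush1c, 35.1% for Espn, 32.2% for Cdhr5, 30.8% for Myo1a, 28.7% for Cdhr2, 23.2% for Myo7b, 20.8% for Vil1 and 17.7% for Pls1. In CTL tumors Cdhr2, the gene with the lowest mean after Ush1c, had the widest spread among the other 9, at 31.2%.

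The genes with the most similar pattern were found by Pearson's r of log2 levels with the mean standardized level of the 10 genes over 12 tumors, among the 12878 genes whose mean was 50 normalized counts or more. They were Oasl1 (r = 0.992), Slc35c1 (0.992), Nectin2 (0.989), Itpk1 (0.988) and Rhpn2 (0.987). The tumors form 2 clusters by group, and r over all 12 includes the difference between them. With the group means removed, the 5 closest were Vnn1 (r = 0.975), Aqp11 (0.974), Paqr5 (0.967), Slc52a3 (0.962) and Coro2a (0.956). Without the 2 tumors farthest from the median, knockdown replicates 1 and 5, r was between 0.905 and 0.940 for these 5. All tumors share the scaling of the deposited table. The mean level of the 10 genes includes Ush1c, whose CTL values rest on 0 or 1 read in each tumor. Vnn1 followed the 10 genes within the groups while its level was lower in knockdown tumors, with a log2 fold change of -0.62 ± 0.17 (SE).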

How the data were processed

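Bulk RNA from 12 tumors was enriched with oligo(dT), built into libraries with a kit that does not mark strand and sequenced in pairs. Per the labels and the study's methods, the authors trimmed reads with Trimmomatic 0.36, aligned them to mm10 with STAR 2.5.2b, counted unique hits per gene with featureCounts (Subread 1.5.2) and divided the counts by DESeq2 size factors. The strand setting was not given in the sources used here. The deposited signal is therefore normalized counts, for 15687 genes, 0 of them below a mean of 5. All values were whole multiples (within 0.01) of the smallest value of their tumor, from which reads and the floor of 3 reads per library were computed.

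Groups came from the sample labels. log2(normalized count + 1) was fitted with limma 3.58.1 (R 4.3.3, mean-variance trend) on all genes, with Benjamini-Hochberg adjustment, and calls required p under 0.05 after adjustment with a log2 fold change beyond 1 in either direction. Fold changes on this scale understate the change of low genes. p-values measure the spread between tumors. Each group grew from its own transduced and selected cells. An effect of the knockdown and another difference between these cell populations therefore cannot be told apart. The fit was tested on simulated data. Levels per kb used the union of GENCODE exons on GRCm38. Named were all 10 genes, up to 6 called genes per list, fixed paralogs and transcription factors, and the 5 genes most alike by each measure. The members and lists were chosen with earlier results of these data known, and some genes of the lists are not reported here. Scaling, pseudocount, filter, trend, replicate block, chromosome shifts and leaving out each tumor were varied.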

Additional observations from a re-analysis of the deposited data

Results flagged for a closer look

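Within each group of 6 tumors, the highest and the lowest value of each of 40 named genes were compared with the nearest other tumor, and 8 of 79 groups held a tumor whose gap, as a share of the group's whole range on the log2 scale, exceeded Dixon's 95% critical value. Chance flags about 1 in 20 groups. In 6 of the 8 the tumor was knockdown replicate 1, at the low end. There Cdhr2 had 271 normalized counts where the next tumor had 582, and Myo1a had 766 where the next had 1561. Myh14 had 2837 (next 5238), Gata4 237 (next 460), Slc35c1 2214 (next 3190) and Paqr5 852 (next 1302). The other 2 were CTL tumors. Espn had 44.5 normalized counts in CTL replicate 2 (next 65.2), and Calml4 had 156.0 in CTL replicate 1 (next 227). The genes are not independent of each other within a tumor, and the cause was not tested.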

How the results depend on the processing

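The counts of called genes stayed within 1.5 times of their values under each alternative run, up to 9 that kept all tumors and 12 that left 1 out. Over all genes 1596 were called, between 1352 (pseudocount 8) and 1605 (pseudocount 0.5) with all tumors and between 1513 and 1713 without 1 of them. Of the 10 microvillus genes 7 were called in each, and of the related lists 11 or 12. Set against the epithelial markers, 7 were called (6 higher, Ezr lower), 6 or 7 without 1 tumor, and against Epcam alone also 7 (5 higher, Eps8 and Ezr lower). Of the single genes, Lcp1 turned from 0.37 to -0.0088 with chromosome medians removed, Ush1c moved to 4.16 with a pseudocount of 8, and Myo1d, between 0.97 and 1.10, and Slc35c1, between 0.93 and 1.10, crossed the fold threshold. The numbers of the replicates did not pair the tumors: correlations of same-numbered tumors ran from -0.27 to 0.10 and 0 of 12 matched best with their own number. A replicate block gave 1554 calls over all genes. The planned count tests on recovered reads were not run. In 3 tumors the size of 1 read was within 1% of 1 normalized count, and a check of the unit did not accept these tumors. The read numbers given here rest on the values being whole multiples (within 0.01) of the smallest value of their tumor, also in these 3. Depth limits Ush1c in CTL tumors, where only a bound can be given.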
